A study of Arabidopsis thaliana with 8 samples.

Results

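The comparison described here sets plants after 7 d at 4 °C against plants after 1 h at 4 °C, and its members were chosen by the time in the cold that the labels give: 4 of the 8 arrays of the series, 2 at each of these times. The plants were of the Arabidopsis thaliana accession Col-0, a widely used laboratory strain, with no transgene or mutation named, and RNA came from everything above ground. Seeds were stratified for 4 d, and plants then grew on soil for 10 d at 22 °C under constant light (100 µmol m⁻² s⁻¹). Flats were moved to 4 °C under dimmer constant light (about 25 µmol m⁻² s⁻¹), where plants were harvested at 1 h, at 24 h or at 7 d. Control plants were harvested at 0 h. Both groups compared were thus in the same dim light at harvest, but they differed by the time spent in the cold and in that light. Every sample is labelled as 18 d old, although plants at 7 d had stood 7 d longer than those at 1 h. Longer cold, longer dim light and greater age therefore cannot be told apart here. The labels number the arrays of a time as replicates 1 and 2 without saying that they came from separate plants or trays, so p-values measure the spread between these arrays, which may be technical.

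Arabidopsis acclimates to cold: days at low, non-freezing temperature make it more tolerant of freezing. Minutes to hours after the transfer, calcium signals and a first wave of transcription factors appear, among them the CBF proteins, which bind the promoters of cold-regulated (COR) genes. The COR proteins, many of them hydrophilic protectants, then accumulate over days, along with soluble sugars and changed membrane lipids, while growth slows. The comparison asks how transcript levels after days in the cold differ from those of the first hour.

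The values are MAS5 signals, a summary in arbitrary units of the probes against 1 transcript (a probe set), scaled to the same trimmed mean on every array. Median signals were 37.6 and 36.0 at 7 d, against 37.5 and 37.6 at 1 h. The ratio of 3′ to 5′ probes, a measure of RNA integrity, was 1.36 and 1.17 for GAPDH at 7 d, against 1.46 and 1.46 at 1 h. For ubiquitin it was 2.13 and 2.14 at 7 d, against 2.08 and 1.90 at 1 h. For actin it was 6.76 and 5.56 at 7 d, against 7.07 and 2.86 at 1 h, so replicate 2 at 1 h was the lowest of the 4 for that transcript. Across 14756 tested probe sets the 2 arrays at 7 d correlated with r = 0.96 and those at 1 h with r = 0.97, while arrays of different times among these 4 correlated with r from 0.90 to 0.92. Rubisco activase (RCA), an abundant leaf transcript, had signals of 3482 and 3404 at 7 d, against 4813 and 4692 at 1 h. The root hair expansins EXPA7 and EXPA18 had signals between 5.29 and 7.32 at 7 d, against 2.88 to 17.2 at 1 h. SAG29, a senescence marker, had 3.34 and 2.11 at 7 d, against 1.05 and 0.939 at 1 h, and none of these 3 reached the level for testing.

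At 7 d, 1160 probe sets were higher than at 1 h, which is 7.86% of the 14756 tested, and 1287 were lower, which is 8.72%, by limma at a Benjamini-Hochberg adjusted p under 0.05. Of these, 318 were at least 2-fold higher (2.16% of those tested) and 570 at least 2-fold lower (3.86%), so the larger changes ran more often downward. Without replicate 1 at 1 h, 357 were at least 2-fold lower, and with a larger pseudocount 211 were at least 2-fold higher. At least 4-fold, 52 were higher and 127 lower, and at least 8-fold, 23 were higher and 31 lower. In all, 2447 passed in either direction (16.6%). The median log2 difference over all tested probe sets was 0.03 and the median standard error 0.19. A fit that pairs arrays by replicate number called 1757 higher and 1842 lower. Without replicate 1 or replicate 2 at 1 h, 404 and 514 were higher, and 472 and 657 lower. Without replicate 1 or replicate 2 at 7 d, 445 and 696 were higher, and 738 and 883 lower. Of those that passed, 636 higher and 608 lower probe sets named exactly 1 gene. Every count of gene-list members below stands against the shares of all tested probe sets, 7.86% higher and 8.72% lower. Some lists were drawn up after values were seen, so these counts describe the members and do not test whether a family stands out. Tested members are only those with a name beyond a locus tag, so a family can hold more genes than its count. In RNA from whole shoots, a change of RNA per cell and a change in the number of cells that hold it cannot be told apart, and this holds for every difference below. Adjusted p-values below are from this limma fit, and each log2 difference (7 d minus 1 h) is on the scale of log2(signal + 6.07) and stands with its standard error. Folds are on the same scale, which makes those of signals near 6.07 smaller than the ratio of the signals.

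**Figure D1:**
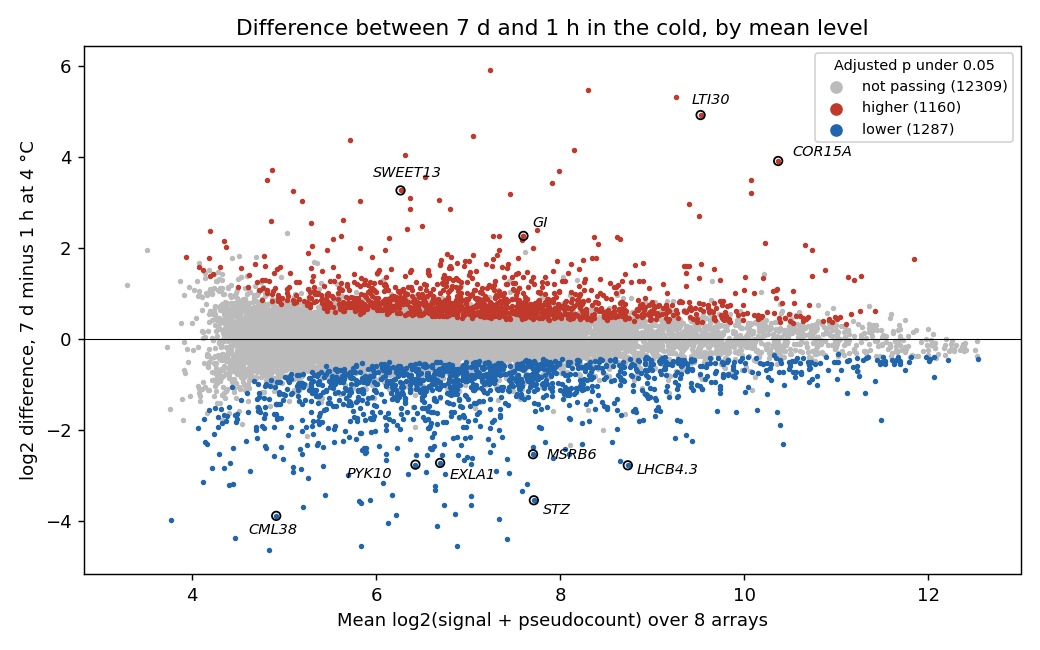
Each point is 1 of 14756 tested probe sets, with its mean log2(signal + pseudocount) over 8 arrays on the x axis and its log2 difference, 7 d minus 1 h at 4 °C, on the y axis. Red points (1160) passed as higher at 7 d, blue points (1287) as lower, and grey points did not pass. Differences ran from -4.64 to 5.91.

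Among probe sets that named 1 gene, those of the COR genes LTI30, COR15A and COR15B were in the 10 with the largest rises at 7 d. All 5 members that a tested probe set named, of 21 genes in the list, passed as higher at 7 d, with a median log2 difference of 3.21 against 0.03 over all tested probe sets. LTI30, a dehydrin that binds membranes, had signals of 3825 and 3078 at 7 d, against 161 and 71.2 at 1 h, 30.2-fold higher (4.92 ± 0.31, adjusted p = 7.55e-05). COR15A, a chloroplast protein that protects membranes during freezing, had 4573 and 4293 at 7 d, against 396 and 211 at 1 h (3.91 ± 0.29, adjusted p = 0.000132). Its neighbour and close homologue COR15B, whose probes may also bind COR15A transcripts, had 2909 and 2919.6 at 7 d, against 419 and 229.6 at 1 h (3.21 ± 0.32, adjusted p = 0.000574). For these 3 genes both arrays at 7 d were several-fold above both at 1 h, and the call held without any 1 of the 8 arrays. COR47, another dehydrin, had 3308 and 2420.4 at 7 d, against 998 and 524 at 1 h (1.96 ± 0.38, adjusted p = 0.0114). COR27, a nuclear protein that acts between cold and the circadian clock, had 509 and 344 at 7 d, against 166 and 60.4 at 1 h (1.99 ± 0.45, adjusted p = 0.0192). For COR47 and COR27 the arrays at 1 h lay farther apart, as a ratio, than those at 7 d. The call was lost without replicate 2 at 1 h (adjusted p = 0.0609 and 0.0815) and without replicate 1 at 7 d (0.0639 and 0.095), but kept without each of the other 6 arrays.

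Over the whole course the COR genes were not at their highest at 7 d. LTI30 had 118 and 86.4 in the control, 161 and 71.2 at 1 h, 7291 and 6834 at 24 h and 3825 and 3078 at 7 d. COR15A had 472 and 289 in the control, 396 and 211 at 1 h, 6316 and 6125 at 24 h and 4573 and 4293 at 7 d. The 1 h arrays of both genes overlapped their control arrays, and the 24 h arrays were the highest.

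Of 25 genes of the abscisate, dehydration and LEA (late embryogenesis abundant) list, 3 were named by a tested probe set, and all 3 passed as higher, with a median log2 difference of 1.05. TIL, a temperature-induced lipocalin at the plasma membrane, had 1591 and 1610.2 at 7 d, against 729 and 807 at 1 h, 2.08-fold higher (adjusted p = 0.000815), and held without any 1 array. HIRD11, a dehydrin that binds metals, had 3214 and 3145 at 7 d, against 2365 and 1810.3 at 1 h (0.62 ± 0.13, adjusted p = 0.0166), and lost its call without replicate 2 at 1 h (0.0783) or without replicate 1 or 2 at 7 d (0.0776 and 0.058). LEA4-5 had 15.8 and 8.82 at 7 d, against 1.1 and 0.596 at 1 h (1.38 ± 0.39, adjusted p = 0.0438). Its signals at both times were near the bottom of the tested range, its 24 h arrays had 83.2 and 145, and its call was lost without any 1 of the 6 arrays of the cold (adjusted p from 0.0622 to 0.197).

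The others of these 10 carried only a locus tag, apart from SWEET13, a sucrose transporter of the plasma membrane. AT1G16850 had 577 and 445 at 7 d, against 24.2 and 12 at 1 h (4.46 ± 0.29, adjusted p = 7.55e-05). AT3G55580 had 307 and 245 at 7 d, against 6.45 and 16.8 at 1 h (4.05 ± 0.28). AT1G80130 had 819 and 1078 at 7 d, against 43.5 and 103 at 1 h (3.69 ± 0.35). These 3 were also high at 24 h, with 1058 and 1295, 446 and 375 and 777 and 836. AT3G53980 behaved differently, with 119.7 and 118 at 7 d, against 5.53 and 4.63 at 1 h (3.49 ± 0.52) and 15.1 and 25 at 24 h, so its high signals were on the 7 d arrays. AT4G12490 had 512 and 1011 at 7 d, against 95.7 and 56.7 at 1 h (3.18 ± 0.36), and 227 and 185 at 24 h. AT3G55940 had 100.4 and 94.9 at 7 d, against 8.44 and 2.15 at 1 h (3.25 ± 0.32). All 10 kept their call without any 1 array. The highest differences of all were in 2 probe sets with no gene named here. The highest had 1285 and 1765 at 7 d, against 14.9 and 24.2 at 1 h (5.91 ± 0.25), and the next 1688 and 1259.7 at 7 d, against 32.7 and 22.1 at 1 h (5.47 ± 0.22). The lowest of all also had no gene named here, with 0.823 and 10.2 at 7 d, against 275 and 241 at 1 h (-4.64 ± 0.50), and so had the next lowest, with 7.33 and 8.01 at 7 d, against 314 and 316 at 1 h (-4.55 ± 0.18).

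**Figure D2:**
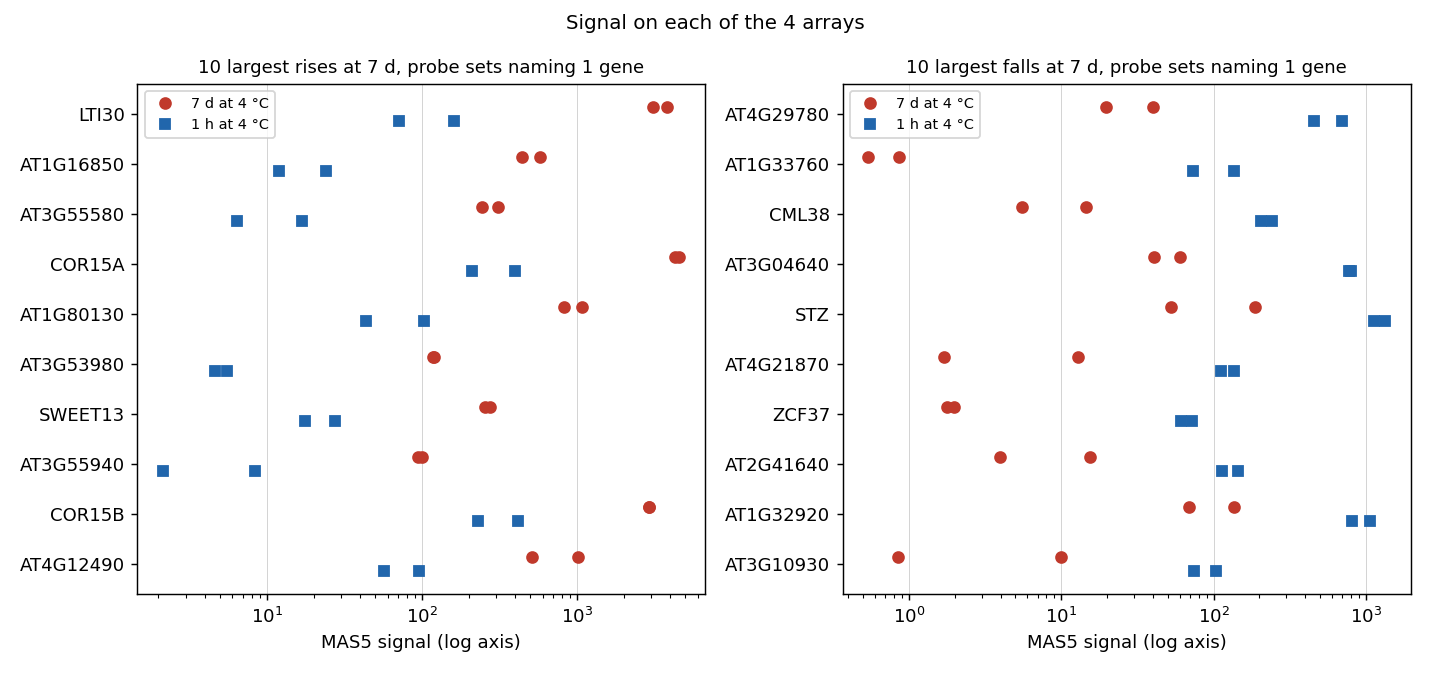
Each row is 1 gene, and points are its MAS5 signals on a log axis on the 2 arrays at 7 d (red circles) and the 2 arrays at 1 h (blue squares). Among probe sets that named 1 gene, the left panel holds the 10 with the largest rises at 7 d, from LTI30 (4.92 on the log2 scale) to AT4G12490 (3.18), and the right panel the 10 with the largest falls, from AT4G29780 (-4.05) to AT3G10930 (-3.15). Genes were eligible only if the arrays of the times did not overlap, so no row shows an overlap.

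Sugar transporters changed in both directions. Of 43 genes in the list of starch and sucrose metabolism and sugar transport, 13 were named by a tested probe set. Among them 4 passed as higher and 2 as lower, 7 missed the threshold, and the median log2 difference was 0.54. SWEET13 had 275 and 253 at 7 d, against 17.5 and 27.4 at 1 h, 9.6-fold higher (3.26 ± 0.19, adjusted p = 5.84e-05). SWEET4, which moves hexoses, had 147 and 170.2 at 7 d, against 25.6 and 32.9 at 1 h (2.22 ± 0.20, adjusted p = 0.000322). TMT2, which loads sugars into the vacuole, had 356 and 286 at 7 d, against 109 and 71 at 1 h (1.79 ± 0.21, adjusted p = 0.00105). In each of the 3 the 24 h arrays lay above both 1 h arrays as well. SWEET17, a fructose transporter of the vacuole membrane, went the other way, with 53.8 and 21 at 7 d, against 197 and 268 at 1 h, 5.87-fold lower (-2.55 ± 0.34, adjusted p = 0.00202). These 4 calls held without any 1 array. A further 2 were picked out after their values were seen. SWEET1, a glucose transporter, had 320.0 and 322 at 7 d, against 176 and 183 at 1 h (0.82 ± 0.12, adjusted p = 0.00325). SWEET2, a sugar transporter of the vacuole membrane, had 84 and 69.9 at 7 d, against 157 and 206 at 1 h (-1.17 ± 0.21, adjusted p = 0.00785, and 0.0513 without replicate 2 at 1 h). With arrays paired by number, 7 of the 13 were higher and 3 lower.

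Genes of phosphatidylcholine synthesis were also noticed after their values were seen. PMEAMT, a phosphomethylethanolamine N-methyltransferase that makes phosphocholine, had 179 and 219 at 7 d, against 709 and 691 at 1 h, 3.46-fold lower (-1.79 ± 0.13, adjusted p = 0.000118). CCT2, an enzyme of the CDP-choline route that uses phosphocholine in the next step, had 167 and 171 at 7 d, against 62.1 and 42.6 at 1 h, 3.04-fold higher (1.60 ± 0.19, adjusted p = 0.00119). Both calls held without any 1 array, so transcripts for enzymes of adjacent steps differed in opposite directions. The paralogue CCT1 had 79.9 and 70.2 at 7 d, against 71.1 and 65.5 at 1 h, and did not pass (0.12 ± 0.15, adjusted p = 0.616). AAPT2, an aminoalcoholphosphotransferase of the last step, had 242 and 224 at 7 d, against 126 and 162 at 1 h (0.68 ± 0.15, adjusted p = 0.0182). Its call was lost without replicate 1 at 1 h (0.113) or replicate 1 at 7 d (0.0823).

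Of 28 circadian clock genes in the list, GI (GIGANTEA), a clock and flowering regulator, was the only one that a tested probe set named. It had 557 and 389 at 7 d, against 114 and 74.6 at 1 h, 4.8-fold higher (2.26 ± 0.26, adjusted p = 0.000942), and 379.9 and 379 at 24 h. The call held without any 1 array. The time of day of harvest is not given in the sources used here. Picked out after their values were seen, BETA-VPE, a vacuolar processing enzyme, had 207 and 179 at 7 d, against 20.7 and 41.8 at 1 h (2.47 ± 0.27, adjusted p = 0.000867), and SERPIN1, a protease inhibitor, had 570.5 and 500.0 at 7 d, against 222 and 214 at 1 h (1.27 ± 0.12, adjusted p = 0.000397). For these 2 the 24 h arrays were higher still, at 234 and 318 and 1484 and 1539.7.

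Genes that were lower at 7 d included some with high signals on the 1 h arrays alone and others with low signals on the 7 d arrays. Among those high at 1 h alone were CML38, STZ and 6 of the other genes among the 10 with the largest falls (of probe sets that named 1 gene). CML38, a calmodulin-like calcium sensor, had 5.56 and 14.6 at 7 d, against 241 and 205 at 1 h (-3.88 ± 0.44, adjusted p = 0.000924). Its control arrays had 4.46 and 15.3 and its 24 h arrays 5.4 and 15, so 7 d lay in the range of the control. STZ, a zinc-finger repressor of the stress response, had 52.4 and 186 at 7 d, against 1329 and 1134 at 1 h (-3.54 ± 0.50, adjusted p = 0.00271), and 61.9 and 128 in the control. AT4G29780 had 19.8 and 40.1 at 7 d, against 697 and 459.6 at 1 h (-4.05 ± 0.39, adjusted p = 0.000464). AT3G04640 had 40.9 and 60 at 7 d, against 796 and 779 at 1 h (-3.83 ± 0.29), and 39.7 and 75.7 in the control. AT1G33760 had 0.867 and 0.544 at 7 d, against 136 and 73.4 at 1 h (-3.97 ± 0.45); values this low have no reliable order, and the pseudocount sets the size of the difference, as it does for CML38 and for AT2G41640, AT3G10930, ZCF37 and AT4G21870 below. AT1G32920 and AT2G41640 had differences of -3.18 ± 0.32 and -3.19 ± 0.50. AT3G10930 had 0.854 and 10 at 7 d, against 103 and 74 at 1 h (-3.15 ± 0.58, adjusted p = 0.00893), and was the 1 of the 10 whose call was lost without an array, replicate 1 at 1 h (0.078). ZCF37 and AT4G21870 were high in the control too. ZCF37 had 1.97 and 1.78 at 7 d, against 61.3 and 72.5 at 1 h (-3.20 ± 0.34), with 26.4 and 48.9 in the control and 2.83 and 1.54 at 24 h. AT4G21870 had 1.69 and 12.8 at 7 d, against 111 and 136 at 1 h (-3.42 ± 0.41), with 65.3 and 114 in the control.

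Several families of signalling genes held members that were lower at 7 d than at 1 h. Of 6 tested calmodulin-like genes with a gene symbol, 2 passed as lower, and the median was -0.76. CML42 had 50.7 and 68.7 at 7 d, against 121 and 141 at 1 h (-1.07 ± 0.20, adjusted p = 0.0101), and lost its call without replicate 2 at 1 h (0.0614) or replicate 1 at 7 d (0.0562). CML42 was as high in the control, with 114 and 137, and had 60.7 and 45.1 at 24 h. CML37 had 6.75 and 17 at 7 d, against 53 and 41 at 1 h, and did not pass (-1.61 ± 0.50, adjusted p = 0.0586), but passed with arrays paired by number (adjusted p = 0.0199) and without either control array (up to 0.0424). Of 5 tested WRKY transcription factors with a gene symbol, which act in defence and stress, 2 were lower, against 8.72% of all tested probe sets. WRKY22 had 20.7 and 17.3 at 7 d, against 99.7 and 78.3 at 1 h, 3.78-fold lower (adjusted p = 0.000733), held without any 1 array, and lay below both control arrays (26.2 and 28) at 7 d. WRKY47 had 40.5 and 36.7 at 7 d, against 69.2 and 67.9 at 1 h (adjusted p = 0.0202), and lost its call without any 1 of these 4 arrays (adjusted p from 0.0584 to 0.104). WRKY53, the second early transcription factor that a tested probe set named, had 40 and 189.6 at 7 d, against 238 and 286 at 1 h. Its 7 d arrays lay far apart, and it did not pass (-1.49 ± 0.61, adjusted p = 0.127), but passed with arrays paired by number (0.0128) and without replicate 2 at 7 d (0.0132).

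Of 5 tested U-box ubiquitin ligases, PUB23, which restrains immunity, passed as lower, with 9 and 24.1 at 7 d, against 126 and 84.7 at 1 h (-2.36 ± 0.41, adjusted p = 0.00695, and 0.0604 without replicate 1 at 1 h). PUB25 had 35.7 and 18.2 at 7 d, against 60.6 and 40.8 at 1 h, and passed with arrays paired by number (adjusted p = 0.0321) but not without the pairing (0.102), and PUB24 passed as lower without replicate 2 at 7 d alone (0.0348, against 0.176). Picked out after their values were seen, SRC2, named for a soybean gene regulated by cold, had 265 and 511 at 7 d, against 1940.4 and 1595 at 1 h (-2.24 ± 0.27, adjusted p = 0.00137). RALFL33, a secreted signalling peptide, had 152 and 129 at 7 d, against 451 and 406 at 1 h (-1.57 ± 0.16, adjusted p = 0.000671). For these 2 both 1 h arrays were above the other 6 arrays, and the calls held without any 1 of the 8.

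**Figure D3:**
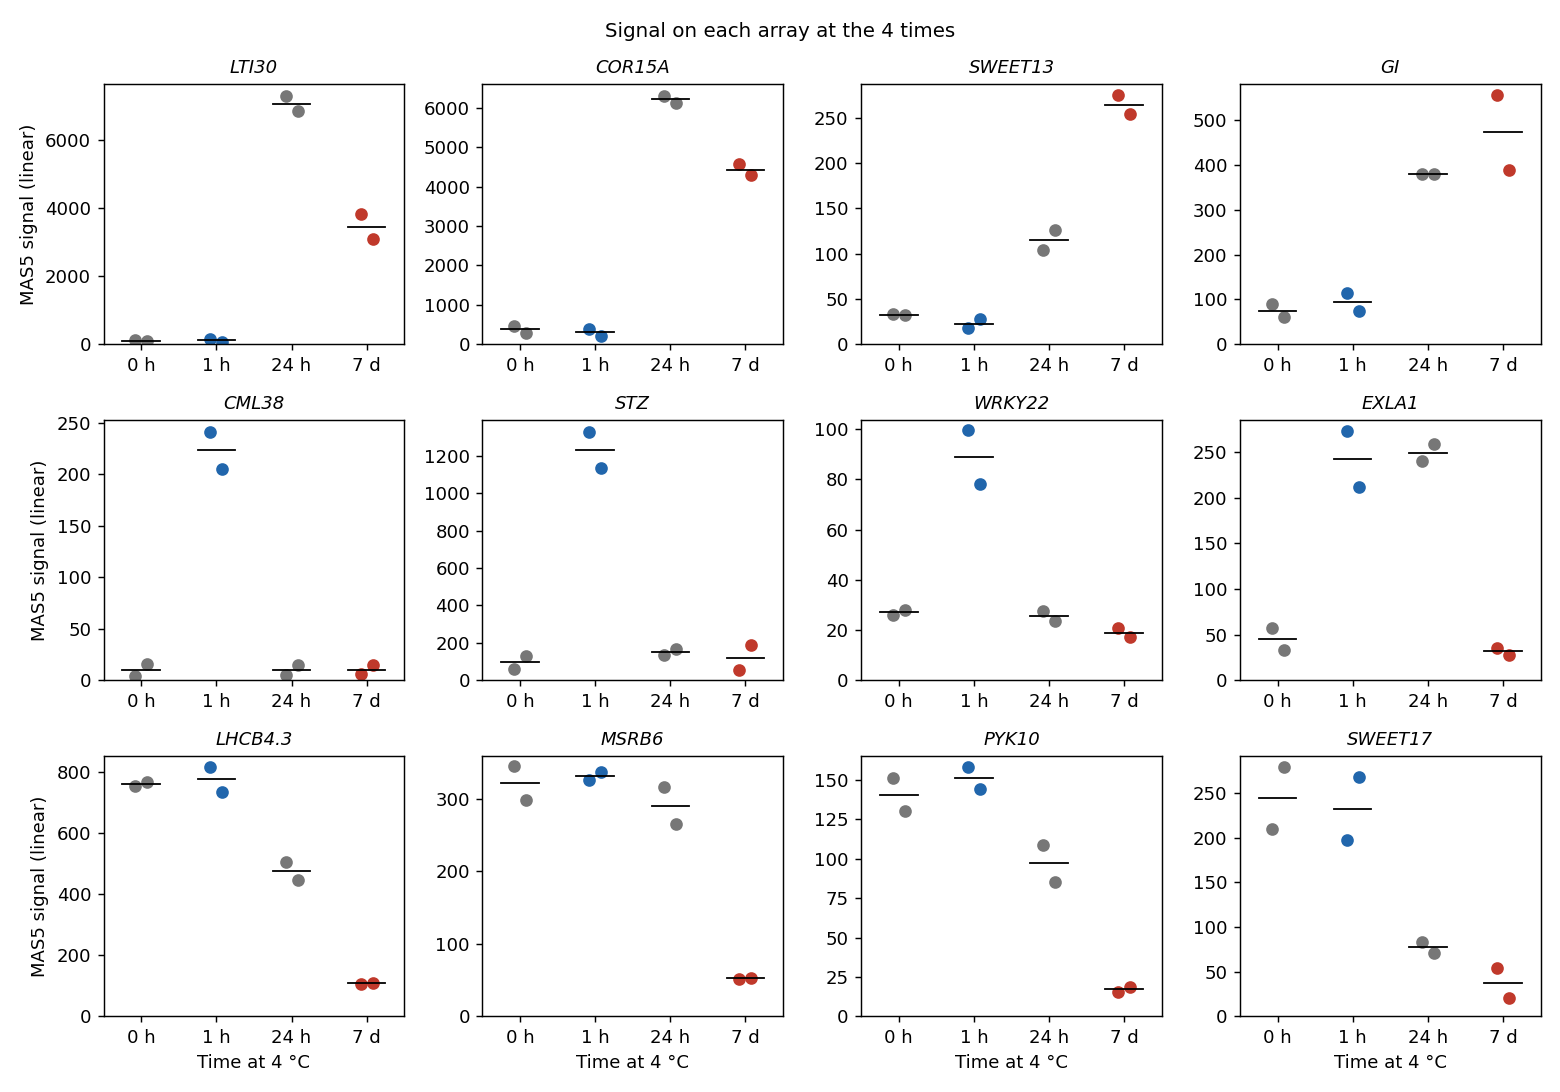
Points are the MAS5 signals, on linear axes that start at 0, of 12 genes on each array at 4 times (0 h, the control, then 1 h, 24 h and 7 d in the cold), and the bars are means of 2 arrays. The top row holds genes that were higher at 7 d (red) than at 1 h (blue), such as LTI30, the middle row genes that were high at 1 h, such as CML38, and the bottom row genes that were lowest at 7 d, such as LHCB4.3. In EXLA1 the 24 h arrays stayed near the 1 h level, and in CML38 they did not.

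LHCB4.3 and MSRB6 had signals at 7 d far below the other 6 arrays. LHCB4.3, an isoform of a minor antenna protein of photosystem II, had 107 and 109.8 at 7 d, against 818 and 735 at 1 h, 6.83-fold lower (-2.77 ± 0.12, adjusted p = 9.53e-06). Its arrays at 24 h had 505 and 447 and its control arrays 756 and 767. The other isoforms, named after their values were seen, did not pass: LHCB4.1 had 4139 and 4291 at 7 d, against 5161 and 4935 at 1 h (-0.26 ± 0.10, adjusted p = 0.11), and LHCB4.2 had 2779.8 and 2654 at 7 d, against 2756 and 3274 at 1 h (-0.15 ± 0.13, adjusted p = 0.486). LHCB4.1 passed as lower without either control array (up to 0.0463). MSRB6, a methionine sulfoxide reductase that repairs oxidised protein, had 51.8 and 53 at 7 d, against 326 and 336 at 1 h, 5.77-fold lower (-2.53 ± 0.14, adjusted p = 4.16e-05), while its 24 h arrays had 316 and 265. The calls of LHCB4.3 and MSRB6 held without any 1 array.

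Of 48 nuclear genes of the photosystems and antenna, 8 were named by a tested probe set, 4 of which were lower while the other 4 missed the threshold; their median log2 difference was -0.32. PSAE-1, a stromal subunit of photosystem I, had 2661 and 2825 at 7 d, against 4988 and 4836 at 1 h (-0.84 ± 0.10, adjusted p = 0.00123), and held without any 1 array. PSB27, a photosystem II assembly factor, had 1471 and 1253 at 7 d, against 1971 and 1915 at 1 h (-0.52 ± 0.12, adjusted p = 0.0254). PSAN, a lumenal subunit of photosystem I, had 2279 and 2354 at 7 d, against 3098 and 2972 at 1 h (-0.39 ± 0.09, adjusted p = 0.0261). The 4 arrays of each gene did not overlap by time, but these last 2 calls were lost without replicate 1 at 1 h (0.117 and 0.128), without replicate 2 at 1 h (0.0854 and 0.0797) and without replicate 2 at 7 d (0.125 and 0.0824), and for PSAN without replicate 1 at 7 d (0.124).

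Of 3 tested Calvin cycle genes, which fix carbon, 2 passed as lower by a small fold. RCA, which reactivates Rubisco, was 1.38-fold lower at 7 d (-0.46 ± 0.10, adjusted p = 0.0155), and PRK, phosphoribulokinase, had 2322 and 2634 at 7 d, against 3633 and 3194 at 1 h (-0.46 ± 0.14, adjusted p = 0.0491). Neither call held without any 1 of these 4 arrays (adjusted p from 0.06 to 0.0824 for RCA and from 0.078 to 0.227 for PRK), and that of PRK was also lost without replicate 1 or 2 at 24 h (0.0572 and 0.0564). SBPASE, sedoheptulose-bisphosphatase, did not pass (-0.32 ± 0.12, adjusted p = 0.107). HPR, the hydroxypyruvate reductase of photorespiration, was picked out after its values were seen and had 1312 and 1163 at 7 d, against 2594 and 2432 at 1 h, 2.03-fold lower (-1.02 ± 0.14, adjusted p = 0.00276), with a call that held without any 1 array. Of 7 tested genes of tetrapyrrole and chlorophyll synthesis, 2 were lower, against 8.72% of all tested probe sets. HEME1, a uroporphyrinogen decarboxylase, had 299 and 314 at 7 d, against 501 and 535 at 1 h (-0.74 ± 0.12, adjusted p = 0.00498), and its call held without any 1 array. HEMB1, an aminolevulinate dehydratase, had 415 and 414 at 7 d, against 584 and 577 at 1 h (-0.48 ± 0.11, adjusted p = 0.023), and lost its call without any 1 of these 4 arrays (0.0759 to 0.107).

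Of 69 plastid-encoded genes tested, 3 were higher at 7 d and 11 lower, against 7.86% and 8.72% of all tested probe sets. The other 55 missed the threshold, and the median log2 difference of all 69 was -0.07. Without replicate 1 at 1 h, 2 were higher and 0 lower. Without replicate 2 at 1 h, 1 was higher and 2 lower, and without replicate 1 at 7 d, 3 were higher and 1 lower. Without replicate 2 at 7 d, 2 were higher and 5 lower, and without replicate 1 or 2 at 24 h, 4 were higher and 5 or 6 lower. With arrays paired by number, 7 were higher and 16 lower. Without either control array, 4 were higher and 11 lower.

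Of 3 plastid RNA polymerase genes that lie side by side, rpoB and rpoC1 passed as higher and rpoC2 did not. On the plastid genome, rpoB, rpoC1 and rpoC2, which encode the β, β′ and β″ subunits, are neighbours, with the ribosomal protein gene rps2 next to rpoC2. rpoB had 249 and 277 at 7 d, against 129.9 and 135 at 1 h (0.96 ± 0.17, adjusted p = 0.00688), and held without any 1 array. rpoC1 had 779 and 1069 at 7 d, against 552 and 480.4 at 1 h (0.82 ± 0.16, adjusted p = 0.0109, and 0.0644 without replicate 2 at 1 h). rpoC2 and rps2, looked at after their values were seen, did not pass. rpoC2 had 372 and 581 at 7 d, against 283 and 300.5 at 1 h (0.66 ± 0.21, adjusted p = 0.0658, 0.0305 with arrays paired by number and 0.0218 without replicate 1 at 7 d). rps2 had 1354 and 1555 at 7 d, against 1098 and 1135 at 1 h (0.38 ± 0.12, adjusted p = 0.0627, and 0.0231 with arrays paired by number). rpoA, which encodes the α subunit and lies elsewhere beside ribosomal protein genes, was lower, with 694 and 877 at 7 d, against 1102 and 1057 at 1 h (-0.47 ± 0.13, adjusted p = 0.0456). Its call was lost without any 1 array other than replicate 2 at 7 d, with adjusted p up to 0.225. rbcL, the large subunit of Rubisco, had 1136 and 1296 at 7 d, against 473 and 415 at 1 h (1.44 ± 0.33, adjusted p = 0.0205), and lost its call without any 1 of these 4 arrays (0.0643 to 0.0902).

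Of 15 plastid-encoded photosystem II genes, 6 passed as lower, against 8.72% of all tested probe sets. The other 9 missed the threshold, and the median log2 difference of all 15 was -0.48. The neighbours psbE, psbF, psbL and psbJ, which encode cytochrome and other small subunits, were 4 of the 6. psbE had 525 and 596 at 7 d, against 1097 and 889 at 1 h (-0.81 ± 0.22, adjusted p = 0.0399). psbJ had 435 and 523 at 7 d, against 825 and 733 at 1 h (-0.70 ± 0.15, adjusted p = 0.0177). psbF and psbL differed by -0.51 ± 0.14 (adjusted p = 0.0367) and -0.48 ± 0.13 (adjusted p = 0.0372). The others that passed, psbM and psbZ, differed by -0.50 ± 0.14 (adjusted p = 0.0431) and -0.46 ± 0.13 (adjusted p = 0.0448). The genes of the large reaction centre and core antenna proteins did not pass: psbA, which encodes the D1 protein, had 642 and 824 at 7 d, against 558 and 433 at 1 h (0.56 ± 0.19, adjusted p = 0.0724), psbB differed by 0.12 ± 0.21, psbC by -0.70 ± 0.26 and psbD by -0.23 ± 0.25. psbC passed as lower without replicate 2 at 7 d (0.0108). The number of the 15 that were lower ranged from 0 to 4 when 1 array was left out in turn. It was 0 without replicate 1 at 1 h or replicate 1 at 7 d, 1 without replicate 2 at 1 h, 2 without replicate 2 at 7 d, 3 without either 24 h array and 4 without either control array. It was 8 with arrays paired by number.

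**Figure D4:**
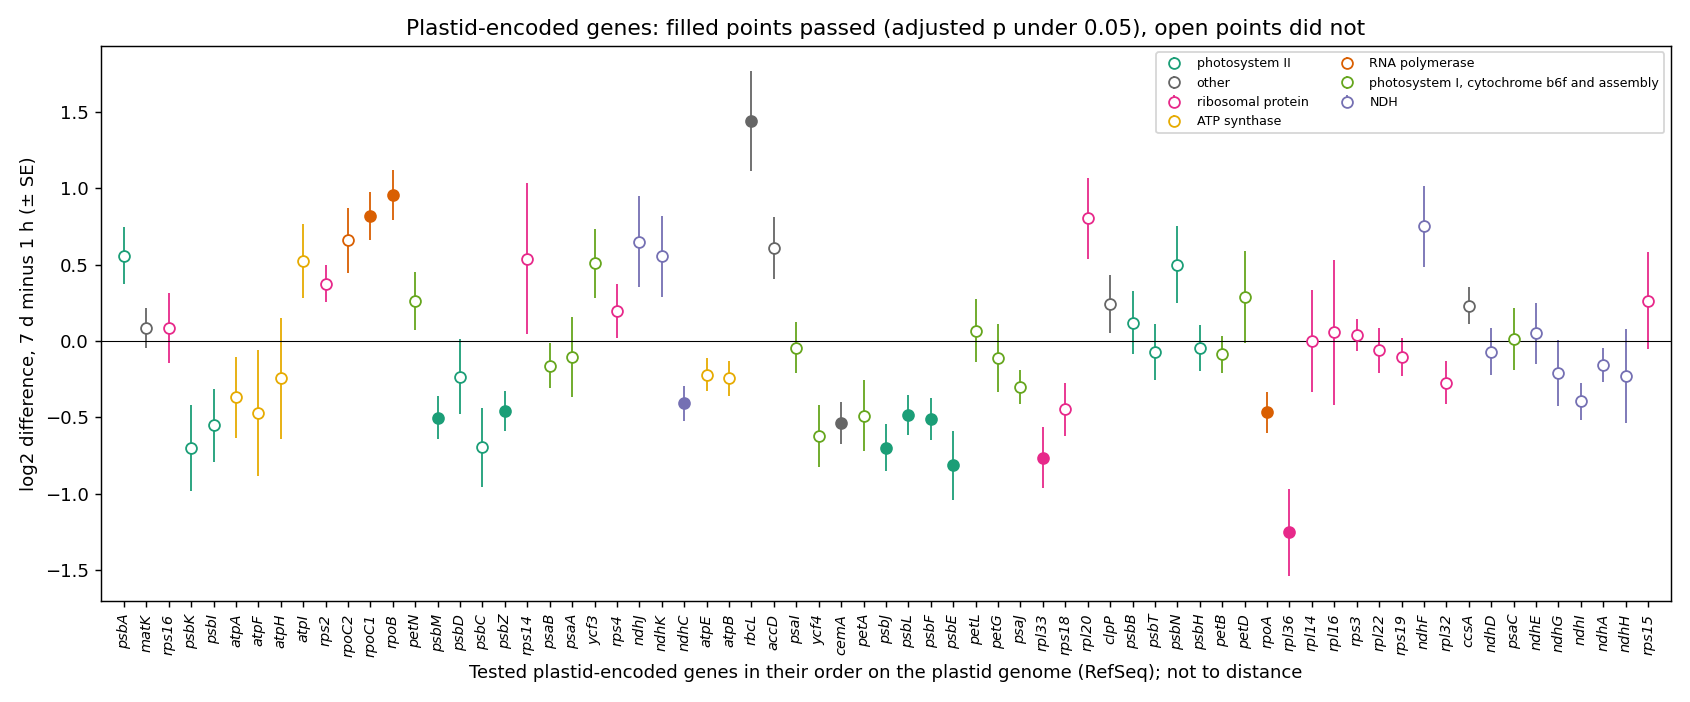
Points are the log2 differences, 7 d minus 1 h, of 69 plastid-encoded genes in the order in which they lie on the plastid genome in RefSeq (not to distance), with bars of ± 1 standard error and colours for the complex they encode. Filled points passed (3 higher and 11 lower) and open points did not. The run from psbJ to psbE lies below 0, and that from rps2 to rpoB above it.

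The remaining plastid-encoded complexes had few calls or none. Of 13 genes of photosystem I and the cytochrome b6f complex 0 passed in limma, but ycf4 and petA passed as lower without either control array (adjusted p up to 0.0385 and 0.0147), and ycf4 with arrays paired by number (0.0267). Of 6 ATP synthase genes 0 passed, and 1 was lower without replicate 2 at 7 d. Of 10 genes of the NDH complex, which carries electrons around photosystem I, 1 was lower: ndhC, with 1157 and 1324 at 7 d, against 1619 and 1665 at 1 h (-0.41 ± 0.11, adjusted p = 0.0424), and its call was lost without any 1 of the 6 arrays of the cold (0.0576 to 0.206). With arrays paired by number, or without either control array, 2 of the 10 were lower. The neighbours of ndhC, ndhJ and ndhK, did not pass, with ndhJ at 0.65 ± 0.30. The ribosomal protein gene rpl36 had 245 and 510.4 at 7 d, against 956 and 760.2 at 1 h (-1.25 ± 0.29, adjusted p = 0.0205), and lost its call without replicate 1 or 2 at 1 h (0.115 and 0.0504). rpl33 had 1152 and 1078 at 7 d, against 2225 and 1614 at 1 h (-0.76 ± 0.20, adjusted p = 0.0322), and lost it without replicate 1 at 1 h (0.182), replicate 1 at 24 h (0.0504) or replicate 1 or 2 at 7 d (0.093 and 0.111).

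Nuclear genes for photosystem II assembly, NDH and cyclic electron flow were lower in 5 cases of 15 tested, against 8.72% of all tested probe sets. They missed the threshold in 10, and their median was -0.17. NdhN, an NDH subunit, had 228 and 181 at 7 d, against 492 and 338 at 1 h (-0.98 ± 0.23, adjusted p = 0.0233). PGRL1B, a component of cyclic electron flow, had 50 and 53.5 at 7 d, against 106 and 81.7 at 1 h (-0.78 ± 0.19, adjusted p = 0.0257). PIFI, which acts with the NDH complex, had 718 and 789.6 at 7 d, against 1309.8 and 1118 at 1 h (-0.68 ± 0.14, adjusted p = 0.0155). In all 3 both 7 d arrays lay below both 1 h arrays, with NdhN showing the largest fall, 1.98-fold. LPA2, a photosystem II assembly factor, differed by -0.62 ± 0.16 (adjusted p = 0.0288). The count of lower genes was 0 without replicate 1 at 1 h, 3 without replicate 2 at 1 h, 3 without replicate 1 at 7 d and 1 without replicate 2 at 7 d. With arrays paired by number 6 were lower and 1 higher.

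The ER body is a store of β-glucosidase in the cells of roots and seedlings, and jacalin-related lectins bind that enzyme. The genes of this group were picked by gene symbol, so any member known only by a locus tag is left out. The counts here thus do not cover the whole family, and members left out may differ in direction. All 6 tested genes so picked had lower signals at 7 d on both arrays. Of the 6, 5 passed and JAL33 did not, and their median log2 difference was -1.51. PYK10, the ER body β-glucosidase, had 15.6 and 18.9 at 7 d, against 158 and 144 at 1 h, 6.76-fold lower (-2.76 ± 0.17, adjusted p = 7.01e-05). NAI2, which is needed to form ER bodies, had 17.6 and 16.7 at 7 d, against 58.7 and 64.9 at 1 h, 2.92-fold lower (-1.54 ± 0.21, adjusted p = 0.00244). Both calls held without any 1 array. PYK10 had 152 and 130.1 in the control and 109 and 85.3 at 24 h, and so was lowest on the 7 d arrays. JAL34 had 21.1 and 13.2 at 7 d, against 61.4 and 44.9 at 1 h (adjusted p = 0.0117), JAL22 had 9.1 and 2.28 at 7 d, against 28.8 and 22.3 at 1 h (adjusted p = 0.0322), and JAL23, named after its values were seen, had 7.22 and 15.2 at 7 d, against 44.7 and 75 at 1 h (adjusted p = 0.0409). JAL33 had 17.3 and 7.02 at 7 d, against 36.5 and 29.8 at 1 h (adjusted p = 0.0814), and passed with arrays paired by number (0.0265). Without an array, 2 to 6 of the 6 were lower: 2 without replicate 1 at 1 h or replicate 2 at 7 d, 3 without replicate 2 at 1 h or either control array, 4 without replicate 1 at 7 d, 5 without replicate 1 at 24 h and 6 without replicate 2 at 24 h. PYK10 is also a root marker. The root markers EXPA7 and EXPA18 were low at both times, with EXPA18 at 7.32 and 5.45 at 7 d, against 15.9 and 17.2 at 1 h, and the part of root tissue in the harvest was not tested. In the glucosinolate list 2 of 3 tested genes were lower, PYK10 and UGT74B1, a glucosyltransferase of glucosinolate synthesis, which had 124 and 130.1 at 7 d, against 265 and 290.1 at 1 h (-1.09 ± 0.19, adjusted p = 0.00736) and held without any 1 array.

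Genes that loosen or build the cell wall were mostly lower where they passed. Of 32 genes for expansins and xyloglucan endotransglucosylases, which loosen walls as cells grow, 11 were named by a tested probe set. Among them 4 passed as lower, against 8.72% of all tested probe sets, 7 missed the threshold, and the median was -0.56. EXLA1, an expansin-like protein, had 35.3 and 27.7 at 7 d, against 273 and 211 at 1 h, 6.59-fold lower (-2.72 ± 0.24, adjusted p = 0.000322), and held without any 1 array. EXPA8 had 44.3 and 43.3 at 7 d, against 265 and 132 at 1 h (-1.96 ± 0.43, adjusted p = 0.0175), and lost its call without replicate 1 at 1 h (0.106) or either array at 7 d (0.0668 and 0.0588). EXLA1 and EXPA8 differed in the rest of the course: EXLA1 had 56.7 and 32.7 in the control and 239.6 and 258 at 24 h, while EXPA8 had 412 and 214 in the control and 34.7 and 13.8 at 24 h. EXPA4 differed by -0.65 ± 0.15 and EXPB3 by -0.75 ± 0.18. Without an array, 1 to 4 of the 11 were lower, with 2 without either 1 h array or replicate 2 at 7 d and 1 without replicate 1 at 7 d, and 6 were lower with arrays paired by number.

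Of 37 other genes of cell wall synthesis and modification, 9 passed as lower and 1 as higher, against 8.72% and 7.86% of all tested probe sets. The median of the 37 was -0.22. CSLA03, a glucomannan synthase, had 25.1 and 25.2 at 7 d, against 75.2 and 76.9 at 1 h, 2.63-fold lower (-1.40 ± 0.20, adjusted p = 0.00326), and held without any 1 array. GH9B13, a glycosyl hydrolase of the endoglucanase family, had 46.8 and 23.2 at 7 d, against 225 and 96.6 at 1 h (-1.97 ± 0.38, adjusted p = 0.011). EXO, a cell wall protein that promotes leaf growth, had 103 and 57.5 at 7 d, against 459.9 and 307 at 1 h (-2.20 ± 0.39, adjusted p = 0.00793). TBL36, of a family of wall polysaccharide acetyltransferases, had 27.7 and 7.94 at 7 d, against 108 and 86.1 at 1 h (-2.24 ± 0.41, adjusted p = 0.00832). In these 4 genes no 7 d array reached a 1 h array. The calls of GH9B13, EXO and TBL36 were lost without replicate 1 at 1 h (0.0549, 0.0578 and 0.058). Without that array 2 of the 37 were lower, without replicate 2 at 1 h or replicate 1 at 7 d 5, without replicate 2 at 7 d 4 and without replicate 1 of the control 6. The 1 that was higher, TBL39, was named after its values were seen and had 70.6 and 70.3 at 7 d, against 43.8 and 38.9 at 1 h (adjusted p = 0.0455), a call lost without any 1 of the 6 arrays of the cold (up to 0.179). With arrays paired by number 2 of the 37 were higher.

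Defensins and thionins, small antimicrobial proteins, had 3 higher, 0 lower and 3 not passing of 6 tested, with a median of 0.78. Of all tested probe sets, 7.86% were higher and 8.72% lower. PDF2.1 had 104 and 41.2 at 7 d, against 8.09 and 4.11 at 1 h (2.59 ± 0.46, adjusted p = 0.00754), and held without any 1 array. LCR69 had 4107 and 3642 at 7 d, against 1979 and 1111 at 1 h (1.38 ± 0.28, adjusted p = 0.0138), and lost its call without replicate 2 at 1 h (0.0612) or replicate 1 at 7 d (0.0683). THI2.2 had 149.7 and 62.9 at 7 d, against 37.3 and 38 at 1 h (1.25 ± 0.34, adjusted p = 0.0377), and its call held without replicate 2 at 7 d or replicate 2 at 24 h but not without any other array. In all 3 both 7 d arrays lay above both 1 h arrays.

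Of 6 tested tetraspanins, membrane proteins that organise protein complexes, 2 were higher and 2 lower, against 7.86% and 8.72% of all tested probe sets. TET3, found at plasmodesmata, had 265 and 263 at 7 d, against 99.8 and 86.4 at 1 h (1.45 ± 0.13, adjusted p = 0.000397), and held without any 1 array. TET8, which marks secreted vesicles, had 263 and 530.1 at 7 d, against 1140.2 and 1108 at 1 h (-1.57 ± 0.36, adjusted p = 0.0208). Its 1 h arrays were above the other 6, and its call was lost without replicate 1 or 2 at 1 h (0.0933 and 0.0775) or replicate 1 at 7 d (0.0988). TET2 differed by 0.74 ± 0.17 (adjusted p = 0.0236) and TET10 by -0.97 ± 0.19 (adjusted p = 0.0119), so related genes stood on opposite sides. TET2 lost its call without replicate 1 at 1 h (0.14) or either 7 d array (0.0734 and 0.0873), and TET10 without replicate 1 at 1 h (0.0887) or replicate 2 at 7 d (0.0558).

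UDP-glycosyltransferases attach sugars to small molecules. Of 25 tested that had a gene symbol, 1 passed as higher and 4 as lower, against 7.86% and 8.72% of all tested probe sets. The number lower was 1 without replicate 1 at 1 h, 2 without replicate 2 at 1 h or replicate 1 at 7 d, and 3 or 4 without any other array. UGT72B3 was the higher one, with 77.6 and 76.7 at 7 d, against 30.2 and 25.7 at 1 h (1.29 ± 0.22, adjusted p = 0.00646), and held without any 1 array. UGT85A2 had 34.6 and 36.9 at 7 d, against 95.5 and 79.3 at 1 h (-1.15 ± 0.19, adjusted p = 0.00594, and 0.0527 without replicate 1 at 1 h). Of 3 tested flavonoid genes, DFR, dihydroflavonol reductase of anthocyanin synthesis, was lower, with 13.1 and 32.4 at 7 d, against 70.1 and 109.5 at 1 h (-1.79 ± 0.46, adjusted p = 0.03). Its call was lost without either 1 h array (0.0693 and 0.145) or replicate 1 at 7 d (0.145). UF3GT, an anthocyanin glycosyltransferase, had 17.2 and 16.3 at 7 d, against 29.1 and 54.4 at 1 h, and passed with arrays paired by number (0.0335) but not without the pairing (0.122).

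Genes of RNA processing, protein folding and mitochondrial respiration had members that were higher. Of 20 tested genes of mRNA splicing, decay and export, 4 passed as higher, against 7.86% of all tested probe sets, 16 missed the threshold, and the median was 0.14. The number higher was 1 without replicate 1 or 2 at 1 h or replicate 1 at 7 d, 2 without replicate 2 at 7 d, and 3 or 4 without any other array. Y14, of the exon junction complex, had 496 and 471 at 7 d, against 311 and 296 at 1 h (0.66 ± 0.12, adjusted p = 0.00733), and held without any 1 array. LSM6A, of the ring that binds the end of RNAs in splicing and decay, had 221 and 230.3 at 7 d, against 127 and 144 at 1 h (0.71 ± 0.16, adjusted p = 0.0199), and lost its call without any 1 of these 4 arrays (0.0532 to 0.116). Of 13 tested genes listed by symbol under protein folding in the endoplasmic reticulum, 2 passed as higher, against 7.86% of all tested probe sets. DER2.2, a derlin, had 196 and 154 at 7 d, against 102 and 82 at 1 h (0.88 ± 0.19, adjusted p = 0.0173), and lost its call without replicate 2 at 1 h (0.0957) or replicate 1 at 7 d (0.0902). ATERDJ2A differed by 0.65 ± 0.14 (adjusted p = 0.017), lost without any 1 of these 4 arrays (up to 0.0837). With arrays paired by number 3 of the 13 were higher, with CRT1b, a calreticulin, added (0.00285, against 0.0506 unpaired). ATCRT1 was lower with the pairing (0.0349, against 0.112), but it entered the list by its symbol alone and is not taken here as a calreticulin. Of 4 tested alternative NAD(P)H dehydrogenases, which bypass complex I of the respiratory chain, 2 were higher: NDB2 had 193 and 459 at 7 d, against 72.7 and 125 at 1 h (1.58 ± 0.42, adjusted p = 0.0358), and NDB1 had 104 and 162 at 7 d, against 67.4 and 63.8 at 1 h (0.92 ± 0.21, adjusted p = 0.0206). Both calls were lost without replicate 1 at 1 h (0.188 and 0.0834), replicate 2 at 1 h (0.0531 and 0.0892) or replicate 2 at 7 d (0.15 and 0.0847), and that of NDB2 also without either control array (up to 0.0531).

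The difference between 24 h at 4 °C and the control shares no array with that between 7 d and 1 h, although both take their estimate of the spread from the same 8 arrays. At 24 h, 1638 probe sets were higher than in the control (11.1% of those tested) and 2235 lower (15.1%). Of the 1160 that were higher at 7 d than at 1 h, 611 were also higher at 24 h than in the control, which is 52.7% of them and 37.3% of the 1638, and 12 were lower. Of the 1287 that were lower at 7 d, 690 were also lower at 24 h, which is 53.6% of them and 30.9% of the 2235, and 39 were higher. Over all 14756 tested probe sets the log2 differences correlated with r = 0.56; probe sets are not independent replicates, and all come from 1 time course. Among the genes that passed in both comparisons with opposite signs, EXLA1 stood at -2.72 for 7 d minus 1 h, against 2.37 for 24 h minus control. rpoB stood at 0.96, against -1.03, and rpoC1 at 0.82, against -0.90. These pairs describe different contrasts: EXLA1 was high at both 1 h and 24 h, and the rpo genes were lowest at 24 h.

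**Figure D5:**
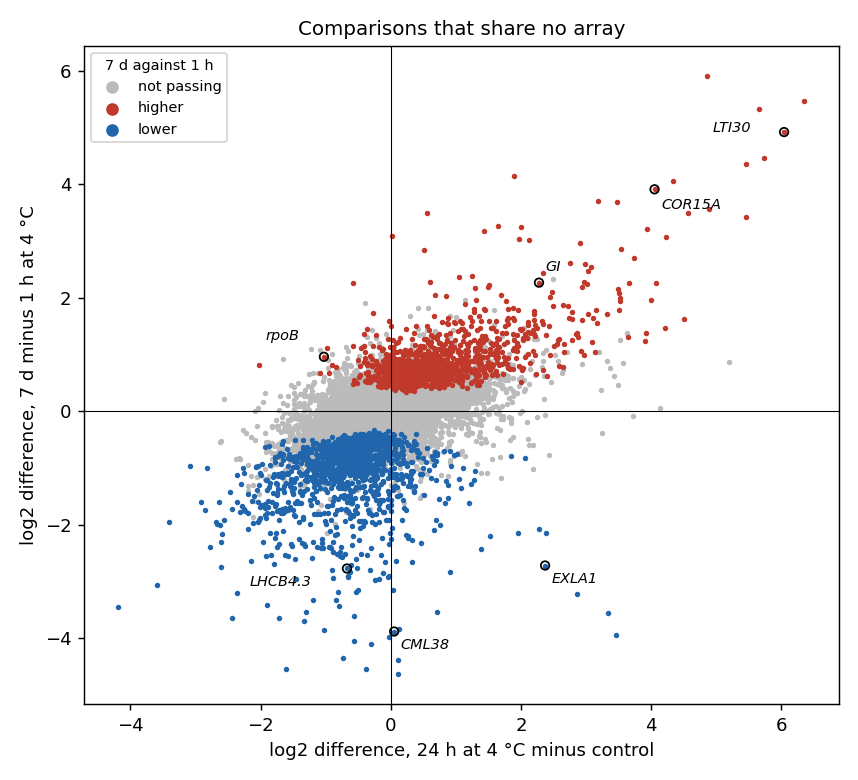
Each point is 1 of 14756 tested probe sets, with its log2 difference for 24 h at 4 °C minus control on the x axis and for 7 d minus 1 h on the y axis, which use different arrays. Red points passed as higher at 7 d than at 1 h and blue points as lower. LTI30, COR15A and GI lie high on both axes, while CML38 lies near 0 on the x axis and EXLA1 and rpoB lie in the quadrants of opposite sign.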

How the data were processed

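The authors deposited MAS5 signal intensities on a linear scale for 8 Affymetrix ATH1 arrays (MAS5 without a version, per the submitters' processing notes). This algorithm combines matched and mismatched probes into 1 signal. Precision is limited by having 2 arrays per time. Scan dates were not used here.

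Of 22810 probe sets, 64 controls were left out. A probe set was tested if 2 or more arrays had it at or over the 40th percentile of that array (14756 in all), as log2(signal + 6.07), where 6.07 is the 20th percentile of the table. This scale understates the change of weak signals. The limma model (version 3.58.1, R 4.3.3) used all 8 arrays with 1 mean for each time and eBayes with a variance trend (4 residual degrees of freedom), and 7 d minus 1 h was tested two-sided, with Benjamini-Hochberg adjustment over all tested probe sets. The code was tested on simulated data.

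Platform annotation, updated through RefSeq's TAIR10.1 table, named 1 gene for 13513 probe sets, several for 503 and none for 8730. A gene with several probe sets stands by its brightest. Of 7950 genes so represented, 1144 had a name beyond a locus tag. Named genes are the 10 largest differences each way, from each list with 3 or more tested members up to 4 of the lowest adjusted p, and all tested COR genes, early transcription factors and organ markers. Those outside this rule are marked as named after their values were seen. The members and gene lists were chosen with earlier results of these data known, some lists after seeing annotation names and values, so their counts are descriptions. Lists added after the first ones were picked by gene symbol. They were the plastid-encoded complexes, photosystem II assembly with NDH and cyclic electron flow, and ER bodies with lectins. UDP-glycosyltransferases, tetraspanins, cell wall synthesis, protein folding and alternative dehydrogenases were also added. So were defensins and thionins, the calmodulin-like family, RNA splicing, decay and export, and WRKY factors. The labels do not say what a replicate number marks. Deviations of same-numbered arrays from their time's mean correlated with r from 0.16 to 0.36 in all pairs of times (0.23 between 7 d and 1 h). The main fit does not pair arrays, and a second fit paired them by number. Values with the pairing are given where they change the call of a gene described or move a count given by over 1.5 times. Alternatives covered the pseudocount, the filter, scaling, the variance trend, the arrays in the fit and each array left out.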

Additional observations from a re-analysis of the deposited data

How the results depend on the processing

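The number of probe sets higher at 7 d was 1757 with the replicate number as a block, 660 when the 7 d and 1 h arrays were fitted alone, and 404 to 1054 when 1 of the 8 arrays was left out, against 1160 as reported. The number lower was 1842 with the block and 930 with those arrays alone, and ranged from 472 to 1182 with 1 array left out, against 1287. With a larger pseudocount 211 were at least 2-fold higher, and with 1 array left out 258 to 320, against 318. With 1 array left out 357 to 598 were at least 2-fold lower, against 570. Quantile normalisation moved the median of the nuclear photosystem and antenna genes from -0.32 to -0.27. It moved that of the 3 tested Calvin cycle genes further, from -0.46 to -0.33. With fewer arrays the fit has fewer degrees of freedom. The smaller pseudocount, no filter, the stricter filter, median centring, quantile normalisation and no variance trend kept both counts within 1.5 times. Median centring turned the split of passing probe sets to 52.1% higher, against 47.4%, and shifted the median of all by less than 0.1. No named gene that passed changed sign under any alternative run. Of 170 named genes and probe sets, the block kept every call and added 16. Leaving out a 1 h or 7 d array lost more calls than any other setting. It lost 59 without replicate 1 at 1 h, 50 without replicate 2 at 1 h, 49 without replicate 1 at 7 d and 42 without replicate 2 at 7 d. Leaving out a 24 h or control array lost 10 to 13. Without a variance trend 27 were lost, without a filter 22, with the 7 d and 1 h arrays alone 21, and under each other setting at most 5. Small differences, and signals near the pseudocount, are what 2 arrays per time resolve least.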
